A study of Mus musculus with 14 samples.

Results

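Phototransduction genes encode the proteins that turn the capture of light into an electrical signal in rods and cones. The 33 genes described here come from a named list of that cascade, and each was found by its symbol among the 28316 genes counted in the retina. By textbook use, 10 of them are rod forms, 11 are cone forms, and 12 serve rods and cones alike. Their unique molecular identifiers (UMIs, which count captured RNA molecules) were summed over the nuclei of each labelled cell type in each library. A level is given as CPM (counts per 1000000), the gene's share of the UMIs of that type in that library times 1000000.

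In darkness, cyclic GMP holds open cation channels in the outer segment, the light-sensing part of the cell. Light converts an opsin to its active form, the opsin activates the G protein transducin, and transducin releases the phosphodiesterase PDE6 from its inhibitory subunit, so that cyclic GMP falls and the channels close. Arrestins, an opsin kinase and a transducin-deactivating complex then end the response, while calcium sensors and guanylate cyclases restore cyclic GMP, and rods and cones use separate genes for many of these steps.

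The study removed Tgfbr1, a TGF-beta receptor, from endothelial cells and sequenced single nuclei of whole mouse retina. The knockout group (CKO) is Cdh5CreER;Tgfbr1 CKO/-, in which 4-hydroxytamoxifen given between postnatal days 3 and 5 activates a Cre expressed in endothelium only. The control is labelled wild type, and the study describes its controls as wild type in phenotype, typically carrying the same Cre with a CKO/+ genotype. The 4-hydroxytamoxifen treatment is stated for the CKO mice, and the labels do not state it for the control. The retinas were taken at postnatal day 14, although the series text calls the animals young adult. There are 12 retina libraries, 1 from control and 11 from CKO retinas. Nothing in the files says how libraries map to separate animals, so the spread and the p-values below measure differences between libraries.

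The libraries hold 77676 nuclei and 257539046 UMIs. The control library has 11513 nuclei and 30989702 UMIs, and the CKO libraries have 104 to 18862 nuclei (median 4210) and 90449 to 55803724 UMIs. CKO 4, the smallest library, has 0 nuclei labelled rods and 1 labelled cone, and 23 of the 33 members have 0 UMIs in it. It therefore enters no photoreceptor value, which leaves 10 CKO libraries with 1891 to 10241 rods and 112 to 805 cones, beside 6621 rods and 411 cones in the control. The members took 1.403% of all UMIs in the control and 1.159 to 1.401% in those 10 CKO libraries, so they are a small share of the RNA even in a tissue made mostly of rods.

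The libraries differ in ways other than genotype. Xist, transcribed from the inactive X chromosome, was above 1000 CPM in the control and in 3 of the 10 CKO libraries with photoreceptors, and below it in the other 7. The metadata give 3 batches: batch 1 holds the control and CKO 1, 2 and 3, batch 2 holds CKO 4 and 5, and batch 3 holds CKO 6 to 11. CKO 8 to 11 were made with version 5 of the PIPseq kit and all other libraries with version 4. Batch 3 was also counted with other gene names, since the gene Septin4 has 6670 UMIs in batch 1 and 0 in batch 3, where the older symbol Sept4 has 7151. No barcode sequence was shared widely: 10 sequences occur in more than 1 library, in 20 nuclei.

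The labels were checked against marker genes that are not members. All 5 rod markers (Nrl, Nr2e3, Reep6, Samd7 and Rp1) were highest in the nuclei labelled rods. For cones, 4 of 5 (Thrb, Rxrg, Ccdc136 and Kcne2) were highest in their own label, and Clca3a2 was at 0 there. Some markers were not exclusive: Thrb averaged 1464 CPM in rods, and Prkca, a rod bipolar marker, averaged 1113 CPM in rods. In the other 9 types, 41 of 45 markers were highest in their own type, the exceptions being Cabp5 for cone bipolar cells, Slc1a3 and Apoe for Muller glia and Aldh1l1 for astrocytes.

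How far the cascade genes separate rods from cones is the question of the next paragraphs. Since the labels come from clustering on all genes, these contrasts are descriptions without a test. The measure is the log2 ratio of the level in rods to the level in cones, each with 1 CPM added, taken in each of 11 libraries. Cone genes separated the types far more sharply than rod genes did. Over the 11 cone members the median ratio averaged -7.84 ± 0.77 (SD, n = 11), and over the 10 rod members it averaged 1.26 ± 0.30 (SD, n = 11), or 1.94 when each nucleus's own CPM is averaged instead. All 10 rod members were higher in rods on average, and 9 of them in each of the 11 libraries. All 11 cone members were higher in cones on average, and 10 of them in each of the 11 libraries. Rod genes were also found in types that are not photoreceptors. The median rod member stood at 41.4% of its rod level in cones and 38.4% in immune cells.

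**Figure D1:**
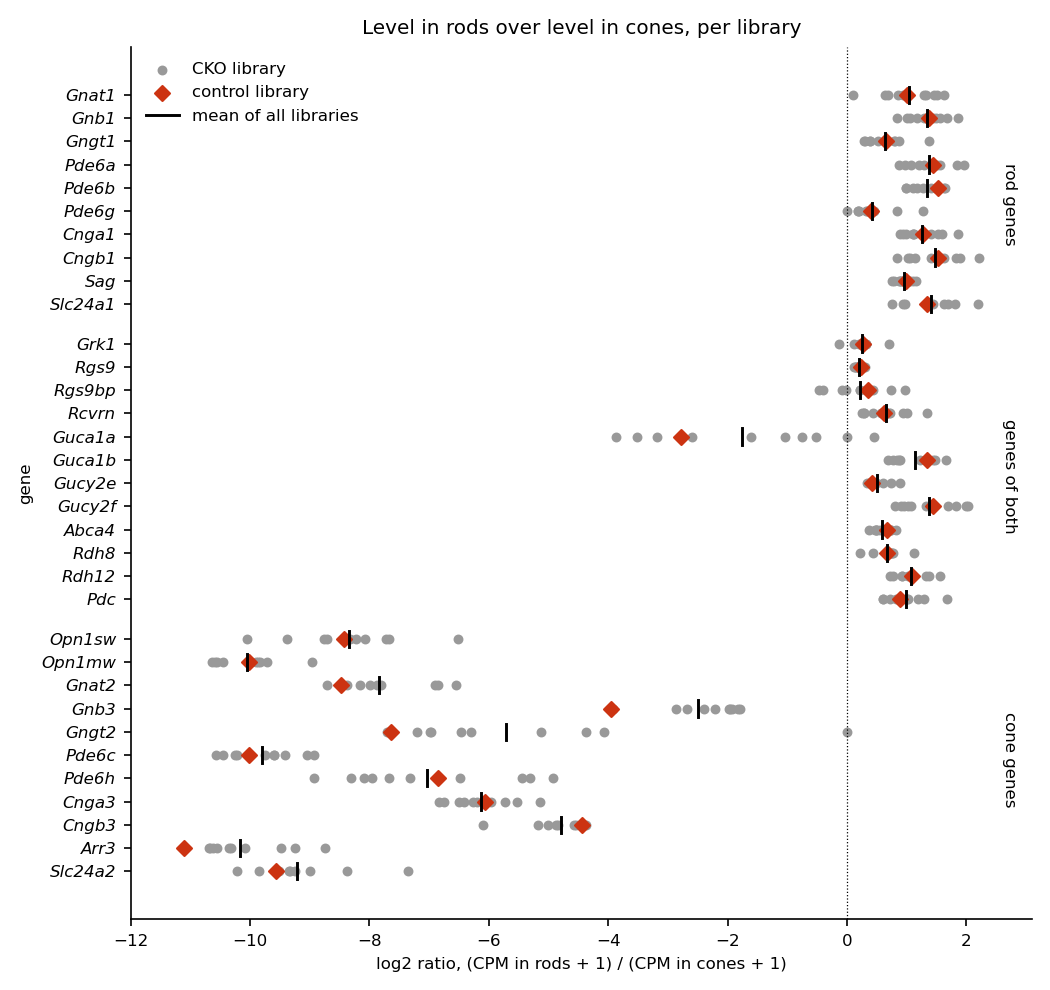
Log2 ratio of the level in rods to the level in cones for each of the 33 members, with CKO libraries as gray points, the control library as a red diamond and the mean of all 11 libraries as a black line. Cone members lie far to the left, from -10.17 for Arr3 to -2.50 for Gnb3, while rod members lie between 0.41 for Pde6g and 1.47 for Cngb1.

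The cone opsins were among the sharpest. Opn1sw encodes the short-wavelength opsin, whose level in cones was 741 CPM in the control and 628, 821 and 1190 CPM as the lowest, median and highest of 10 CKO libraries. Opn1mw encodes the middle-wavelength opsin, at 1760 CPM in control cones and 1273, 1972 and 2595 CPM in CKO cones. In rods neither passed 5.895 CPM in any library. The control lay inside the CKO range for each opsin in cones.

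Transducin carries the signal from the opsin to PDE6, and each of its 3 subunits has a rod and a cone gene. For the alpha subunit, rod Gnat1 was at 571 CPM in control rods and 244, 540 and 713 CPM in CKO rods, with a rod over cone ratio of 1.04 ± 0.45 (SD, n = 11). Cone Gnat2 was at 480 CPM in control cones and 286, 422 and 511 CPM in CKO cones, with a ratio of -7.83 ± 0.74 (SD, n = 11). Gnat1 in cones stood at 50.9% of its rod level, whereas Gnat2 in rods stood at 0.247% of its cone level. Gnat1 averaged 261 CPM in cones and 219 CPM in immune cells. Whether Gnat1 in cones comes from the cones themselves was not tested.

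The beta and gamma subunits were less orderly. Rod Gnb1 had a ratio of 1.34 and rod Gngt1 of 0.64, while cone Gngt2 had -5.72 and cone Gnb3 had -2.50 ± 0.79 (SD, n = 11), the smallest separation of any cone member. In cones of CKO 7, Gngt2 had 0 UMIs, which allows up to 5.68 CPM by an exact Poisson bound, while the other 9 CKO libraries had 112 to 346 CPM and the control 291 CPM. That library held 286 cones, and its other nuclei held 32 UMIs of Gngt2.

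PDE6 breaks down cyclic GMP, with catalytic subunits from Pde6a and Pde6b in rods and from Pde6c in cones, and inhibitory subunits from Pde6g in rods and Pde6h in cones. Pde6b was at 2013 CPM in control rods and 1528, 1811 and 1965 CPM in CKO rods. Pde6c was at 1647 CPM in control cones and 1202, 1504 and 1956 CPM in CKO cones. The catalytic genes split as the textbook has it, with ratios of 1.38 for Pde6a, 1.34 for Pde6b and -9.81 for Pde6c. Among the inhibitory genes, Pde6h had a ratio of -7.03 ± 1.34, while Pde6g had 0.41 ± 0.36 (SD, n = 11) and was above 0 in 10 of 11 libraries, the weakest rod preference in the rod list.

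The cyclic GMP-gated channel is built from Cnga1 and Cngb1 in rods and from Cnga3 and Cngb3 in cones. Cngb1 had the largest ratio of the rod list, 1.47 ± 0.42, and Cnga1 had 1.26 ± 0.30 (SD, n = 11). Cnga3 stood at -6.13 and Cngb3 at -4.80. Cngb3 was the exception among the channel genes in rods, with 121 CPM in control rods and 36.4, 85.7 and 100.1 CPM in CKO rods, against 2660 CPM in control cones and 1833, 2138 and 2824 CPM in CKO cones.

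Arrestins bind the active opsin and stop its signal. Sag, the rod arrestin, was at 11081 CPM in control rods and 7120, 9223 and 14149 CPM in CKO rods, and its ratio was 0.95 ± 0.13 (SD, n = 11). Arr3, the cone arrestin, was at 3494 CPM in control cones and 1776, 3075 and 3883 CPM in CKO cones. With 1 CPM added, its ratio of -10.17 ± 0.72 (SD, n = 11) was the most negative of the members, close to Opn1mw at -10.05 ± 0.50. As a plain share of the cone level, Opn1mw was the lowest cone member in rods, at 0.0439%. Per nucleus, rods held 16.3 UMIs of Sag and cones 15.8, although cones were deeper, with a median of 2169.5 UMIs against 1064 in rods. Sag averaged 5134 CPM in cones and 3196 CPM in immune cells, and whether Sag in cones comes from the cones was not tested. For Arr3, at least 1 UMI was found in 96.2% of cones and in 0.163% of rods.

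The shutoff genes common to rods and cones were nearly even between them. Grk1, the opsin kinase, had a ratio of 0.25 ± 0.20, and Rgs9, which speeds GTP hydrolysis by transducin, had 0.20 ± 0.055 (SD, n = 11), the steadiest ratio of the members. Rgs9bp, the membrane anchor of Rgs9, had 0.21 ± 0.44 and was above 0 in 7 of 11 libraries. Rgs9 levels were 1457 CPM in control rods and 1037, 1347 and 1607 CPM in CKO rods, and 1244 CPM in control cones and 942, 1175 and 1411 CPM in CKO cones.

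Recovery genes leaned to rods, with 1 exception. Recoverin (Rcvrn), the calcium sensor that restrains the opsin kinase, had a ratio of 0.65. Of the calcium sensors that act on guanylate cyclase, Guca1b leaned to rods at 1.14 and Guca1a to cones at -1.77 ± 1.497 (SD, n = 11). The Guca1a mean includes the batch 3 libraries, with 0 to 3 UMIs in cones and 0 to 5 in rods. At such counts the added 1 CPM brings the ratio toward 0. In the control the Guca1a ratio was -2.78. The cyclase genes Gucy2e and Gucy2f had ratios of 0.51 and 1.37. Guca1a also divided the libraries by batch: in cones it was at 86.6 CPM in the control, 47.6 to 115 CPM in CKO 1 to 3, 112 CPM in CKO 5, 0 CPM in CKO 6 and 7, and 1.57 to 4.61 CPM in CKO 8 to 11. It had 897 UMIs in all of batch 1, 578 in batch 2 and 58 in batch 3, while its neighbour Guca1b had 9433, 6368 and 14708. The cause of this gap between batches was not tested.

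The exchangers that pump calcium out of the outer segment split by type, with rod Slc24a1 at 1.41 and cone Slc24a2 at -9.21. The retinoid genes leaned to rods: Abca4, which moves retinoid across disc membranes, had a ratio of 0.59, and the retinol dehydrogenases Rdh8 and Rdh12 had 0.68 and 1.08. Phosducin (Pdc), which binds the transducin beta and gamma subunits, had 0.98. Over the 12 shared members the median ratio averaged 0.59 ± 0.17 (SD, n = 11), with 11 higher in rods on average and Guca1a higher in cones.

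Other photoreceptor genes from 3 lists of the same cells leaned to rods on average. Over 10 outer segment genes (such as Prph2 and Rom1, which shape the disc rim) the median ratio averaged 0.56 ± 0.11, and all 10 were higher in rods on average. Over 13 partner and transport genes (such as Unc119 and Pde6d, which carry lipid-modified cascade proteins) it averaged 0.15 ± 0.19, with 8 higher in rods and 5 in cones. Over 10 inner segment channel and synaptic terminal genes it averaged 0.25 ± 0.10 (SD, n = 11 for the 3 lists), with 7 higher in rods and 3 in cones. The outer segment list lay near the shared members, the rod members stood above the 3 lists and the cone members far below them.

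Background in the other types was asked next, since cells other than photoreceptors should lack most members. Rod genes were found in every type at a substantial fraction of their rod level, and cone genes at a small one. Each of the 10 rod members and 11 cone members was highest in its own photoreceptor on average. The median rod member stood at 41.4% of its rod level in cones, 38.4% in immune cells, 27.98% in Muller glia, 27.1% in horizontal cells, 26.7% in cone bipolar cells, 24.4% in glycinergic amacrine cells, 23.9% in rod bipolar cells, 17.7% in ganglion cells, 16.7% in GABAergic amacrine cells and 16.0% in astrocytes. How close the members lay to each other differed between types. In rod bipolar cells all 10 lay between 22.6% (Sag) and 34.6% (Gngt1) of their rod level, and in cones between 37.4% (Cngb1) and 76.9% (Pde6g). They lay between 22.4% (Sag) and 54.5% (Pde6g) in horizontal cells, and between 34.3% (Sag) and 73.3% (Pde6g) in immune cells. Pde6g and Gngt1 were the highest members in each of these types.

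The median cone member stood at 0.248% of its cone level in rods, 2.05% in GABAergic amacrine cells, 3.20% in glycinergic amacrine cells, 3.45% in ganglion cells, 4.15% in cone bipolar cells, 4.18% in rod bipolar cells, 4.75% in astrocytes, 4.94% in immune cells, 5.68% in horizontal cells and 5.96% in Muller glia. Rods, the most numerous type, thus had the lowest median, and they were the lowest type for 9 of the 11 cone members, all but Gnb3 and Cngb3. Astrocytes rest on 4 libraries, none of them the control, which has 12 astrocytes.

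**Figure D2:**
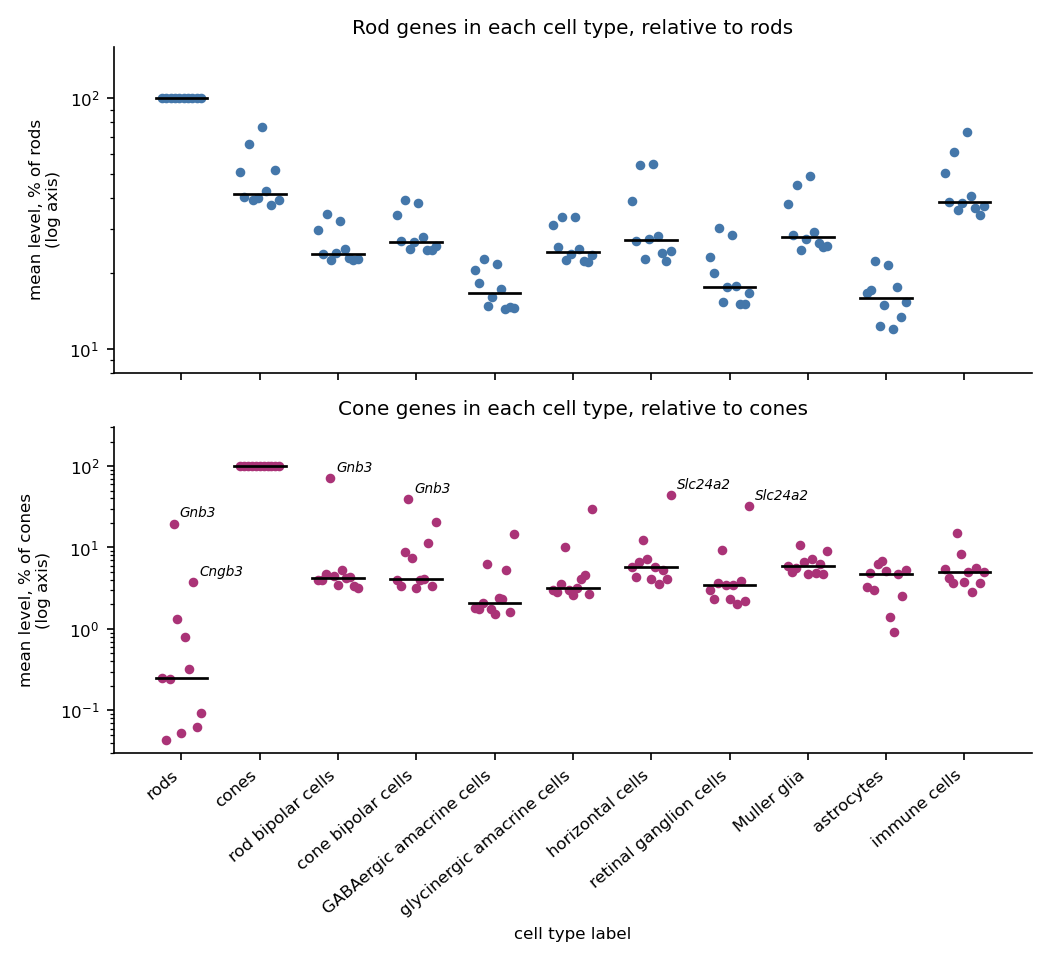
Mean level of each rod member (upper panel, % of its level in rods) and each cone member (lower panel, % of its level in cones) in the 11 labelled cell types, on log axes. Among rod members, Pde6g and Gngt1 are highest in each type other than rods (54.5% and 54.3% in horizontal cells, where the median is 27.1%). Gnb3 (70.6% in rod bipolar cells) and Slc24a2 (44.0% in horizontal cells) stand above the other cone members.

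Sag shows how widely a rod transcript was spread. At least 1 UMI of Sag was found in 99.6% of rods (median depth 1064 UMIs), 95.5% of cones (2169.5 UMIs), 48.8% of cone bipolar cells (3496 UMIs) and 42.3% of rod bipolar cells (3390 UMIs). Its level in rod bipolar cells was 2126 CPM in the control and 1562, 2075 and 3106 CPM in CKO libraries. Summed over the 10 rod members, rod bipolar cells had 4492 CPM in the control and 4700 ± 696 CPM (SD, n = 10) in CKO libraries, from 3846 to 6201, so the control lay within the CKO spread.

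Cone transcripts outside cones were concentrated in few nuclei. Arr3 had at least 1 UMI in 6.10% of cone bipolar cells, and the 5% of cone bipolar nuclei with most Arr3 held 97.3% of its UMIs there, up to 63 in 1 nucleus. Nuclei with at least 10 UMIs of 8 cone members (all but Gnb3, Cngb3 and Slc24a2) made up 86.8% of cones, 3.74% of cone bipolar cells, 3.52% of rod bipolar cells, 5.05% of Muller glia and 0 of 41020 rods (exact upper limit 0.00899%). In cone bipolar cells those nuclei held 78.5% of the type's UMIs of these genes. They were deeper, with a median of 9288 UMIs against 3394.5 in the rest, and had 1943 CPM of cone bipolar markers against 4157. The share of such nuclei in cone bipolar cells was 3.00% in the control and 2.71, 3.86 and 6.18% as the lowest, median and highest of 10 CKO libraries, so the control lay inside the CKO range.

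3 cone members stood apart from this background. Gnb3 was at 70.6 ± 10.5% of its cone level in rod bipolar cells, 39.2 ± 6.09% in cone bipolar cells and 19.7 ± 8.18% in rods (SD, n = 11). Bipolar cells use Gnb3 in the G protein of their glutamate receptor pathway, and 86.8% of rod bipolar cells had at least 1 UMI of it, against 11.2% of GABAergic amacrine cells, which were deeper. Slc24a2 was at 44.0 ± 12.8% of its cone level in horizontal cells, 32.5 ± 4.63% in ganglion cells and 29.4 ± 5.69% in glycinergic amacrine cells (SD, n = 11), but at 0.0941% in rods. Cngb3 was at 11.3 ± 2.18% in cone bipolar cells and 3.72 ± 1.04% in rods (SD, n = 11).

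How the cone opsins combine in single cones was asked next, since mouse cones commonly express both. Both were found in 38.7% of control cones (159 of 411, exact 95% interval 34.0 to 43.6%) and in 38.9 ± 8.13% of CKO cones (SD, n = 10 libraries; lowest 28.6, median 37.1, highest 51.9%). Opn1mw without Opn1sw was found in 38.7% of control cones and 36.5 ± 6.43% of CKO cones, and Opn1sw without Opn1mw in 18.0% and 20.5 ± 2.52% (SD, n = 10). Neither was found in 4.62% of control cones and 4.07% of CKO cones. The control lay inside the CKO range for each class.

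These shares depend on depth. With each cone thinned to 1000 UMIs, which leaves out 503 of 3184 cones, both opsins were found in 25.1% of control cones and 23.3 ± 4.19% of CKO cones (SD, n = 10). With at least 2 UMIs required of each, the shares were 22.6% and 27.0 ± 10.1% (SD, n = 10). Types that should lack both opsins gave far less: both were found in 0.0151% of control rods and 1.15% of control cone bipolar cells, and in CKO libraries in 0.0100% of rods and 2.45% of cone bipolar cells on average (at most 0.0529% and 4.59%).

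**Figure D3:**
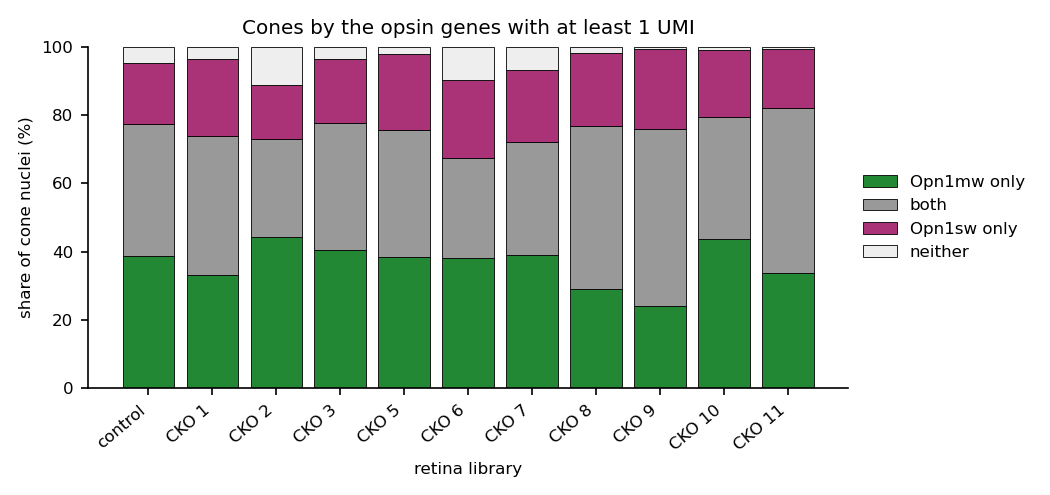
Share of cone nuclei (%) with UMIs of both cone opsins, of Opn1mw only, of Opn1sw only and of neither, as stacked bars for the control and 10 CKO libraries. The share with both runs from 28.6 to 51.9% over the CKO libraries and is 38.7% in the control.

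Within cones the opsins were found apart more often than together. Pooled over libraries, Opn1sw was found in 50.5% of 2383 cones with Opn1mw and in 83.0% of 801 cones without it, although the second set was shallower (median 1811 against 2302 UMIs). Opn1mw made up 70.4% of opsin UMIs in control cones and 61.7, 68.5 and 74.5% as the lowest, median and highest of 10 CKO libraries. Cells of 1 library share their source, so these pooled shares carry no test.

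The comparison of control with CKO asks whether loss of Tgfbr1 in endothelium goes along with other photoreceptor transcript levels. Tgfbr1 itself was at 89.0 CPM in the whole control retina and 71.4, 78.9 and 87.0 CPM as the lowest, median and highest of the 10 CKO libraries, with 365 CPM (33 UMIs) in CKO 4. The control lay above those 10 libraries. No retina label is endothelial, so Tgfbr1 here is no check of the deletion. Nor do endothelial markers measure endothelium in these labels, since Flt1 averaged 925 CPM in Muller glia and Cldn5 and Cdh5 averaged at most 2.40 and 0.981 CPM in any type. With 1 control library, the smallest exact permutation p for a single value is 0.0909 against 10 CKO libraries and 0.25 within batch 1. The fits below therefore assume that the control varies like the CKO libraries, and with batch and kit as covariates they read genotype within batch 1.

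In rods, most members were close to the control. Of 31 members tested (Pde6c and Cnga3 had too few UMIs), 24 had a log2 difference within 0.5 of 0, 9 were positive and 22 negative, and their median was -0.07, against 0.00 over all 14146 genes tested. By edgeR, 0 of 31 passed the adjusted threshold, where 0.0141% of all genes did, and 2 had an unadjusted p under 0.05, where 3.65% of all genes did. DESeq2 also gave 0, where 0.325% of all genes passed. The absence of a call does not show that levels were equal, since the standard errors of the members had a median of 0.22 on the log2 scale.

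The 2 members with an unadjusted p under 0.05 in rods were Gnb3 and Pdc. Pdc was at 2378 CPM in control rods and 1754, 2025 and 2382 CPM in CKO rods, below the control in 9 of 10 libraries. Its log2 difference was -0.33 (SE 0.14, edgeR p = 0.034, adjusted p = 1). The control and CKO ranges of Pdc touched only through CKO 5.

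By position alone, the control lay above all 10 CKO libraries in rods for 5 of the 31 members (Gngt1, Pde6b, Cnga1, Cngb3 and Guca1a), where 5.00% of all genes did, and below them for Gnb3, where 3.58% did. Gngt1, the gamma subunit of rod transducin, was at 1752 CPM in control rods and 569, 780 and 1748 CPM in CKO rods. The values differed between batches: CKO 1 to 3 had 886 to 1748 CPM, CKO 5 had 1330, CKO 6 and 7 had 693 to 745 and CKO 8 to 11 had 569 to 815. The kits of batch 3 overlapped. Its log2 difference with batch and kit as covariates was -0.51 (SE 0.31, edgeR p = 0.12, adjusted p = 1).

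The rod sum went with kit version. Summed over the 10 rod members, rods had 22231 CPM in the control, 19626 to 24671 CPM in the 6 version 4 CKO libraries and 16478 to 16708 CPM in the 4 version 5 libraries. The kits did not overlap in this sum, and the control lay inside the version 4 range. Sag, the most abundant rod member, was at 7120 to 8005 CPM in version 5 and 8710 to 14149 CPM in version 4 CKO libraries. Pde6a and Slc24a1 also did not overlap between kits. The other rod members did, such as Gnb1 at 2249 to 2297 CPM in version 5 and 2145 to 2826 CPM in version 4 CKO libraries. Version 5 libraries all belong to batch 3, and its version 4 libraries CKO 6 and 7 had 23804 and 21857 CPM. Some marker sums of other types in rods were also highest in version 5 (Muller glia, ganglion cells and both amacrine types). The rod and cone bipolar sums were not. The horizontal cell sum cannot be compared between batches, since it is led by Septin4, which batch 3 counts as Sept4. Within batch 3 that sum was 0.704 to 0.729 CPM in CKO 6 and 7 and 2.19 to 5.68 CPM in the version 5 libraries. The 6 Muller glia markers, with Glul the most abundant and none at 0, summed to 38.4 to 123 CPM in those 4 libraries and 0.364 to 15.3 CPM in the version 4 CKO libraries, with 5.35 CPM in the control.

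In cones all 33 members were tested, and again most were close to the control. The differences were within 0.5 of 0 for 32 members, 12 were positive and 21 negative, and their median was -0.06, against 0.01 over all 9645 genes tested. By edgeR, 0 of 33 passed, where 0.0622% of all genes did, and 1 had an unadjusted p under 0.05, where 4.64% of all genes did. DESeq2 gave 0, where 0.0518% passed. The control lay above all 10 CKO libraries for Gngt1 alone (5.02% of all genes) and below them for 0 members (5.36% of all genes).

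The member with an unadjusted p under 0.05 was Pde6h, the inhibitory subunit of cone PDE6. It was at 221 CPM in control cones and 743, 442 and 489 CPM in CKO 1, 2 and 3. The other CKO libraries ran from 99.8 CPM in CKO 10 to 656 CPM in CKO 7, so the CKO range enclosed the control, with 9 of 10 libraries above it. The log2 difference was 1.37 (SE 0.55, edgeR p = 0.024, adjusted p = 0.988). Pde6h passed under 2 of 13 alternatives, 1 of them with no filter on low counts (1.34, edgeR adjusted p = 6.2e-08). The other used the 4 libraries with Xist above 1000 CPM, the control and CKO 1, 2 and 7, with batch as covariate (1.45). In that fit CKO 7 was alone in its batch, so the difference rests on the control against CKO 1 and 2.

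The test of rods against cones asks whether the genotype difference itself differs between them. Gnb3 was the 1 member of 33 to pass, where 0.0608% of 14793 genes did, all 9 of them with a higher value in rods. An unadjusted p under 0.05 was found for Gnb3 and Arr3, where 4.42% of all genes had one. For Gnb3 the difference in rods exceeded that in cones by 1.54 on the log2 scale (SE 0.29, edgeR adjusted p = 0.0072). For Arr3 it was 1.70 (SE 0.75, edgeR p = 0.030, adjusted p = 1), a gene with at most 7.04 CPM in rods of any library.

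Gnb3 encodes the beta subunit of cone transducin, and its level in rods was 62.2 CPM in the control (535 UMIs, exact 95% Poisson interval 57.0 to 67.7). In the other libraries of batch 1 it was 183 CPM in CKO 1, 317 in CKO 2 and 135 in CKO 3. Over all 10 CKO libraries the lowest was 95.1 CPM in CKO 7, the median 190 and the highest 397 in CKO 5. The control was thus the lowest of the 11 libraries, below all 10 CKO libraries, and CKO libraries of 1 batch differed widely among themselves. In rods the log2 difference was 1.76 (SE 0.53, edgeR p = 0.0068, adjusted p = 0.883), which did not pass.

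In cones Gnb3 was at 973 CPM in the control and 634, 1040 and 1570 CPM as the lowest, median and highest CKO libraries, 6 of 10 above the control. The log2 difference in cones was 0.17 (SE 0.17, edgeR p = 0.34, adjusted p = 1). Levels there went with batch and kit: 981 to 1177 CPM in CKO 1 to 3, 1570 in CKO 5, 1461 to 1511 in CKO 6 and 7, and 634 to 878 in CKO 8 to 11. The log2 ratio of rods to cones was -3.95 in the control and -3.93, -2.10 and -1.79 as the lowest, median and highest CKO libraries, so 10 of 10 were above the control, with CKO 7 nearly at it. In a 2-sided exact permutation test of that ratio p was 0.0909 over all libraries and 0.25 within batch 1, each the smallest possible. Gnb3 was picked for its edgeR call on these same libraries, so these values add no support to it.

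**Figure D4:**
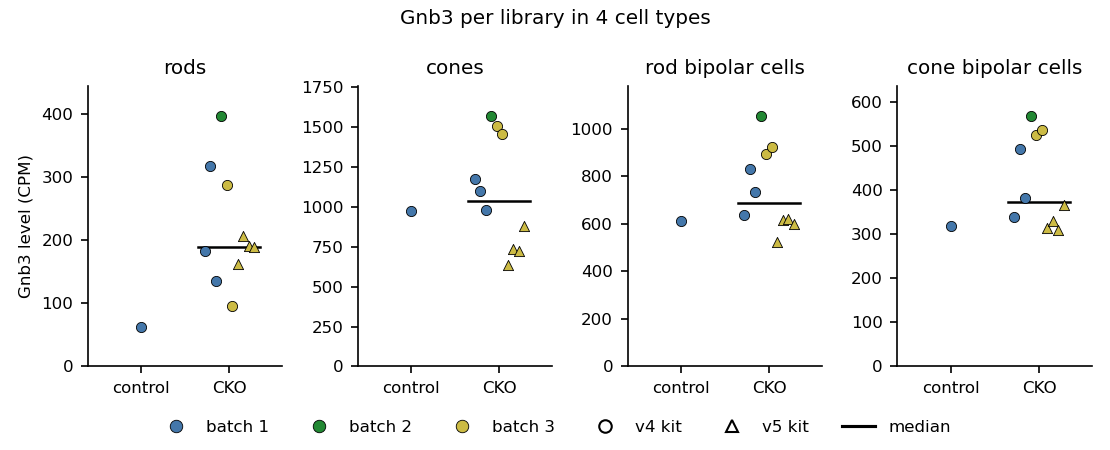
Gnb3 level (CPM) in control and CKO libraries for 4 cell types, 1 point per library with batch as color and kit as shape, on axes that start at 0. In rods the control at 62.2 CPM lies below all 10 CKO libraries (95.1 to 397 CPM), while in cones it lies inside their range.

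The Gnb3 call rests on few libraries and settings. Without CKO 2 (317 CPM in rods) it was 1.19 (adjusted p = 0.153), and without CKO 5 (397 CPM in rods; left out with CKO 4, since the authors took whole clusters out of these libraries) it was 1.54 (adjusted p = 0.0619). It also missed the threshold with kit as the only covariate (1.48, adjusted p = 0.444) and with nuclei of at least 1000 UMIs (1.41, adjusted p = 0.0957). Of the 5 alternatives planned, 3 thus lost the call and 2 kept it, RLE scaling (1.49, adjusted p = 0.0155) and no filter on low counts (1.51, adjusted p = 2.5e-13). The other 10, batch 1 alone (1.498, adjusted p = 0.035) and leaving out each of 9 CKO libraries, were chosen after seeing the data, and 9 of them passed. Over all 15 it ran from 1.19 to 1.71, with adjusted p from 2.5e-13 to 0.444.

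Gnb3 was also low in the control in types other than rods. Outside rods and cones, the share of all genes lying below the CKO range was not counted. The control lay below all CKO libraries in 5 of 10 types: rods, GABAergic amacrine cells (24.9 CPM against 31.5 to 111), glycinergic amacrine cells (45.5 against 83.2 to 156), horizontal cells (48.1 against 81.4 to 173) and Muller glia (67.5 against 67.7 to 190). With CKO 4 left out, which has 0 UMIs of Gnb3 in ganglion and immune cells, the control was lowest in 7 of 10, with 40.8 CPM against 62.1 to 145 in ganglion cells and 87.4 against 102 to 266 in immune cells. In the bipolar types, where the gene is used, the control lay inside the CKO range: 612 CPM against 523 to 1054 in rod bipolar cells and 318 against 310 to 568 in cone bipolar cells. Markers of bipolar cells were low in rods apart from Prkca, which is not exclusive. Without Prkca the 4 other rod bipolar markers, with Sebox the most abundant and none at 0, summed to 1.39 CPM in control rods and 0.778 to 7.17 CPM in CKO rods, and this sum was chosen after seeing the data. It was above the control in all CKO libraries but CKO 2 (0.778 CPM). The 5 cone bipolar markers had Grik1 as the most abundant and none at 0. They summed to 4.53 CPM in control rods and 0.137 to 6.34 CPM in CKO rods. Whether RNA of bipolar cells adds to Gnb3 in rods was not tested.

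In rod bipolar cells no member passed, and summed over all 33 members the control lay inside the CKO range (7091 CPM against 6468 to 9572). Of 33 tested, 28 were positive and 5 negative with a median of 0.22, against 0.00 over all 11700 genes. The 28 are not to be read as separate changes. In these cells the 10 rod members lay together at 22.6 to 34.6% of their rod level, and 3.52% of nuclei held 88.8% of the UMIs of 8 cone members. By edgeR 0 passed, where 0.0171% of all genes did; 2 (Rdh12 and Opn1mw) had an unadjusted p under 0.05, where 5.33% of all genes did; and DESeq2 gave 0, where 0.145% passed. Rdh12 was at 101 CPM in the control (212 UMIs) and 106, 149 and 191 CPM in CKO libraries, above the control in 10 of 10. Its log2 difference was 0.53 (SE 0.21, edgeR adjusted p = 0.84). Rdh12 was picked for its unadjusted p, and the share of all genes outside the CKO range was not counted in this type.

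In cone bipolar cells the median over 33 members was 0.06, against 0.00 over 14679 genes. By edgeR 0 passed, as did 0.00% of all genes, and 4 (Pdc, Pde6c, Opn1sw and Pde6h) had an unadjusted p under 0.05, where 4.43% of all genes did. DESeq2 gave 0, where 0.123% passed. Pde6h, picked for its unadjusted p, was at 4.54 CPM in the control (24 UMIs). It was at 4.89, 17.5 and 30.8 CPM in CKO libraries, above the control in 10 of 10. The share of all genes outside the CKO range was not counted in this type. The log2 difference of Pde6h was 2.15 (SE 0.73, edgeR adjusted p = 0.886). Out of 13 alternatives, it passed with no filter on low counts (2.15, edgeR adjusted p = 1.2e-05) and in the libraries with Xist above 1000 CPM (2.19). The Xist fit again rests on the control against CKO 1 and 2.

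In Muller glia the median over 33 members was 0.05, against 0.01 over 12992 genes. By edgeR 0 passed, where 0.0385% of all genes did, and 4 (Gngt2, Guca1b, Cnga1 and Gnb3) had an unadjusted p under 0.05, where 9.31% of all genes did. DESeq2 gave 0, where 0.192% passed. Gngt2 had the largest difference of the 4 and the only negative one, -1.55 (SE 0.66, edgeR p = 0.031, adjusted p = 0.481). It was at 25.8 CPM in the control (39 UMIs) and 0, 10.4 and 16.5 CPM in CKO libraries, below the control in 10 of 10. Guca1b was at 55.6 CPM in the control (84 UMIs) and 56.0, 79.3 and 106 CPM in CKO libraries, above the control in 10 of 10. Its log2 difference was 0.65 (SE 0.26, edgeR adjusted p = 0.447). Gngt2 and Guca1b were picked for their unadjusted p, and the share of all genes outside the CKO range was not counted in Muller glia.

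By edgeR, 0 of the 33 genes of the partner, outer segment and terminal lists passed in rods, cones, rod bipolar cells, cone bipolar cells, Muller glia or the test of rods against cones. In rods their median log2 differences were -0.28 for partner and transport genes, -0.03 for outer segment genes and -0.01 for channel and terminal genes, with 0 of 33 at an unadjusted p under 0.05. In cones the medians were -0.20, -0.01 and 0.01, with 1 of 33 at an unadjusted p under 0.05. Such a p was found for 3 of 33 in rod bipolar cells, 1 of 33 in cone bipolar cells, 6 of 33 in Muller glia and 0 of 33 for rods against cones, beside 5.33%, 4.43%, 9.31% and 4.42% of all genes. The outer segment genes had medians of 0.31 in rod bipolar cells, 0.13 in cone bipolar cells and 0.27 in Muller glia.

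The members are spread over the genome. They lie on 14 chromosomes, with Opn1mw, Arr3 and Gucy2f on X and the neighbours Guca1a and Guca1b on chromosome 17. In the GRCm39 annotation 5 members overlap another coding gene: Opn1sw with Calu, Gngt2 with Abi3, Pde6h with Arhgdib and Rcvrn with Glp2r on the opposite strand, and Guca1a with Gm50461 on the same strand.

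Promoters were searched for TAATCC, the core bound by OTX family factors, to which the photoreceptor factor Crx belongs, and for its form on the other strand, GGATTA. RefSeq promoters on the GRCm38.p6 build, each running from 250 bases before to 50 after the gene start, covered 23 of the 33 members. The motif was in 9 of their 25 promoters (36.0%), beside 7.06% of all 32851 promoters. It was found for 4 of 7 rod members in the table (Cnga1, Cngb1, Gngt1 and Sag), for 1 of 7 cone members (Gnat2) and for 4 of 9 shared members (Abca4, Guca1a, Gucy2e and Gucy2f). Gnat1, Pde6a, Pde6g, Gnb3, Gngt2, Pde6c, Cngb3, Rgs9bp, Rcvrn and Guca1b are not in the table. A match is a description of letters in this window.

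The promoters printed here are those of a pair of rod members that hold the motif, and of a cone member with it and a cone member without it, so that the windows can be compared. Sag lies at chr1:87803430-87803729 on the plus strand with 1 match and Cngb1 at chr8:95306536-95306835 on the minus strand with 2. Gnat2 lies at chr3:108092816-108093115 on the plus strand with 1 match and Arr3 at chrX:100605247-100605546 on the plus strand with 0. Sequences run 5′ to 3′, and capitals mark the motif on either strand.
Sag: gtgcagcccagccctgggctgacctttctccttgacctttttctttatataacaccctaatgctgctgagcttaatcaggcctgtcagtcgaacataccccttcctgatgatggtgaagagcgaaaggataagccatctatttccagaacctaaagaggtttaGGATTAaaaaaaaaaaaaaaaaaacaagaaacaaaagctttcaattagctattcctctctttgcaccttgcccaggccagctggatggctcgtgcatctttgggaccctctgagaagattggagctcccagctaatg
Cngb1: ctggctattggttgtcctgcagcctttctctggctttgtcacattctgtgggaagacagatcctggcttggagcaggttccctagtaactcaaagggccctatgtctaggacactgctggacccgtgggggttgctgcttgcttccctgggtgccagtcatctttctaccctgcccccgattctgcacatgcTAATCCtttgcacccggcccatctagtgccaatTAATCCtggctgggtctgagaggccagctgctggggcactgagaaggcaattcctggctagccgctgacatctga
Gnat2: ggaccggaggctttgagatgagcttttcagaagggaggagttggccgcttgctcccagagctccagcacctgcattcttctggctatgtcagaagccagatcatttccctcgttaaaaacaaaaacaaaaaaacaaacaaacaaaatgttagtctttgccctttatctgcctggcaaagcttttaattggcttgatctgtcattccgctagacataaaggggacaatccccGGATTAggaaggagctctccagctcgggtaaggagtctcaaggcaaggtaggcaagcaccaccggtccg
Arr3: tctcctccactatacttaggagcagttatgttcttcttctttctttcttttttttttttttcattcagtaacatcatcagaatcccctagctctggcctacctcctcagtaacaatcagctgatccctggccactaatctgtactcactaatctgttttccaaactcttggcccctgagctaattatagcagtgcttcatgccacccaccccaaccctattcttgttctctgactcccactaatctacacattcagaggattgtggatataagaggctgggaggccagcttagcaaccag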

How the data were processed

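The deposited retina matrix gives UMI counts for each nucleus. Before depositing it, the authors aligned reads to a GRCm39 index (PIPseeker), removed background (CellBender) and took out doublets (SOLO). By hand they further removed mixed nuclei, and from CKO 4 and 5 whole clusters of several nuclei, and they clustered in Seurat, and the submitters' processing notes name the build mm10 instead. Their cell type labels were used as given. Counts were summed per type and library where at least 20 nuclei carried the label, and the library was the replicate. Tests used edgeR 4.0.16 in R 4.3.3 (quasi-likelihood fits with TMM scaling, its own filter on low counts, batch and kit as covariates, Benjamini-Hochberg adjusted p under 0.05), with DESeq2 1.42.0 beside it. The test of rods against cones also held a term for each library. No pairing of control with CKO retinas is given. When tested on simulated data, the fits for rods and cones missed most 2-fold changes, so counts of 0 do not show equal levels. Descriptions and figures used Python 3.11.15, numpy 2.4.6, pandas 2.3.3, scipy 1.17.1 and matplotlib 3.10.9. Thinning drew 1000 UMIs per nucleus at random without replacement.

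The members and lists were chosen with earlier results of these data known. All 33 members are named; of the lists of other photoreceptor genes, those past the threshold in rods or cones would be named (at most 10), with single genes named as examples of a list, and further genes appear only as cell type markers or as checks of gene names. Brain libraries enter only the observations.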

Additional observations from a re-analysis of the deposited data

Results flagged for a closer look

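In each group of 10 CKO libraries the highest or lowest value was called far from the others when its gap to the nearest one was large against the whole range, by Dixon's 95% limit. 66 groups were tested and 6 had such a value, where chance gives about 1 in 20 groups, or 3.3. All 6 were the highest values in rods. In CKO 7 they were Gnb1 at 2826 CPM (nearest library 2402), Slc24a1 at 1144 CPM (nearest 802.9), Opn1mw at 3.521 CPM (10 UMIs; nearest 1.304) and Arr3 at 7.042 CPM (20 UMIs; nearest 3.502). In CKO 3 it was Cnga3 at 1.043 CPM (3 UMIs; nearest 0.4385), and in CKO 10 Slc24a2 at 4.0 CPM (19 UMIs; nearest 2.085). The values of Opn1mw, Arr3, Cnga3 and Slc24a2 thus rest on few UMIs.

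For Gnb3 the edgeR test of rods against cones passed: between the 1 control library and the CKO libraries, the log2 difference in rods exceeded that in cones by 1.5411 (adjusted p = 0.0072). Genotype cannot be told apart from that control library, 4 of 15 alternatives lost the call, and over the 15 alternatives adjusted p ran from 2.5e-13 to 0.444.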

How the results depend on the processing

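The signs of a few single-gene differences were followed under the alternatives, and none of these changed. They were Gnb3, Pdc and Gngt1 in rods, and Gnb3, Gngt1 and Pde6h in cones. The rest were Rdh12 and Opn1mw in rod bipolar cells, Pde6h in cone bipolar cells, and Gnb3 in rods against cones. The median over members changed sign in rods, -0.07 as reported and 0.13 with kit as the only covariate, so some single members changed sign there. That median also changed sign in cone bipolar cells, 0.06 as reported and -0.05 without CKO 2. In rods against cones it was 0.00, and it ran from -0.17 without CKO 1 to 0.20 with kit as the only covariate. Genes passing by edgeR in rods (2 as reported) became 0 with kit as the only covariate, 0 in version 4 libraries, 1 in batch 1 alone, 14 in libraries with Xist above 1000 CPM, 46 by DESeq2, 9 with RLE scaling, 31 with no filter on low counts, and 0 to 11 leaving out CKO 1, 2 or 3 in turn. In cones (6) they became 1 with kit only, 3 in version 4, 19 with Xist, 58 with no filter and 4 to 15 leaving out a library. In rod bipolar cells (2) they became 0 with kit only, 16 in batch 1, 89 with Xist, 17 by DESeq2, 103 with no filter, 1 with members left out of the scaling and 3 to 7 leaving out a library. In cone bipolar cells (0) they became 3 in version 4, 1 in batch 1, 27 with Xist, 18 by DESeq2, 109 with no filter and 0 to 2 leaving out a library. In Muller glia (5) they became 1 with kit only, 1 in version 4, 17 in batch 1, 249 with Xist, 25 by DESeq2, 273 with no filter, 9 with nuclei of at least 1000 UMIs and 7 to 20 leaving out a library. In rods against cones (9) they became 29 with no filter and 7 to 23 leaving out a library.

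Members passing in cones and in cone bipolar cells (0) became 1 with Xist and 1 with no filter, each time Pde6h. In rods against cones (1, Gnb3) they became 0 with kit only, 0 without CKO 4 and 5, 0 with nuclei of at least 1000 UMIs, and 0 to 1 leaving out a library; in that test batch 1 alone and the leaving out of CKO 1 to 3 and 6 to 11 were chosen after seeing the data. The rod member ratio of 1.26 became 1.94 as a mean of each nucleus's own CPM. The cone member ratio of -7.84 became -8.99 with 0.1 CPM added, -5.39 with 10 CPM added and -7.01 in version 5 libraries. The rod member sum in rod bipolar cells, 4700 CPM, became 3227 as a mean of each nucleus's own CPM. The share of cones with both opsins, 38.9%, became 23.3% thinned and 27.0% with 2 UMIs of each. The cause of these shifts was not tested.

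With 1 control library, genotype and that library cannot be told apart, and its spread is taken from CKO libraries. The fits read genotype within batch 1. No paired analysis was possible because the files give no pairs. Proteins were not analysed here.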

Other observations

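In the 2 brain libraries (31324 nuclei), 29 of the 33 members were under 6 CPM in both. The others were Slc24a2 (634 CPM in control, 609 in CKO; 3947 in oligodendrocytes), Gnb1 (120 and 168), Rgs9 (69.8 and 57.9; 904 in the cluster labelled GABA_9) and Abca4 (33.5 and 23.8; 534 in the cluster labelled CP_8).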
